A study of Mus musculus with 8 samples.

Results

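The genes described here encode the subunits of the proteasome and the factors that assemble, activate or inhibit it. They were chosen by name, as every gene of the count files whose symbol starts with Psma, Psmb, Psmc, Psmd, Psme, Psmf or Psmg and a digit, without the inducible subunits Psmb8, Psmb9 and Psmb10 and without names marked as pseudogenes. The rule itself uses no measured value, but it was chosen with earlier results of these data known. It gave 47 of 24411 genes. Of these, 45 had enough counts to be tested, and the other two, Psma8 and Psmb11, had 0 counts in every library. Polyadenylated RNA was sequenced from A223, a mouse squamous cell carcinoma line, in 4 groups of 2 libraries. KD largazole cells carried a knockdown of PRDX6, a peroxiredoxin that reduces phospholipid hydroperoxides, and were sampled 18 h after addition of 100 nM largazole, a compound that blocks class I histone deacetylases. KD DMSO cells carried the same knockdown and were sampled with the solvent DMSO at 0 h. Parental largazole and parental DMSO cells were the unmodified line under the same pair of conditions. Drug and time therefore change together, and the knockdown has the unmodified line as its control, since a non-targeting construct was not analysed here. Whether the replicates are separate cultures is not stated in the labels. The spread behind the p-values may therefore be technical.

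The proteasome degrades proteins that carry a ubiquitin chain. Its 20S core is a barrel of stacked alpha and beta rings with the proteolytic sites of Psmb5, Psmb6 and Psmb7 facing inwards, and its 19S cap recognises the chain, removes it and uses a ring of ATPases to unfold and feed in the substrate. Dedicated chaperones build both parts, other activators can replace the cap, and in many cells the transcription factor Nfe2l1 raises the subunit genes together when degradation is blocked. Tumour cells with a heavy load of misfolded protein depend on this machine, which is the target of bortezomib.

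The knockdown label was checked first. Prdx6 had 81.1 and 64.9 CPM (counts relative to the library total, scaled between libraries) in KD largazole beside 257 and 233 CPM in parental largazole, and 86.6 and 79.2 CPM in KD DMSO against 297 and 283 CPM in parental DMSO. Libraries held 13020492 to 15613216 counts. Of 10 epithelial markers, Krt8 (1006 to 2267 CPM), Itga6 (191 to 391 CPM), Itgb4 (69.5 to 197 CPM) and Krt18 (94.8 to 183 CPM) were well expressed in all 8 libraries. Krt5 and Cdh1 stayed under 1 CPM, and Trp63 and Epcam had 0 counts in the 4 DMSO libraries. The list as a whole therefore does not show a squamous identity. With largazole 8 of these markers were tested and 6 rose and 2 fell in each genotype. The sum of all 10, much of it Krt8, was nevertheless lower with the drug in each genotype. For KD cells it was 2732 and 2656 CPM with DMSO, and with largazole it was 1968 and 1767 CPM. For parental cells it was 2624 and 2484 CPM with DMSO, and with largazole it was 1706 and 1621 CPM. The summed 6 fibroblast markers were 3545 and 4059 CPM in KD largazole, 3926 and 4002 CPM in KD DMSO, 3177 and 3239 CPM in parental largazole and 2891 and 2884 CPM in parental DMSO. The summed 6 leukocyte markers were 41.9 to 63.3 CPM in largazole and 4.07 to 4.79 CPM in DMSO libraries, nearly all of it Cd68, with Cd3e at 0 throughout. The part of these marker differences in the results below was not tested. In bulk RNA, fewer cells of a type and less RNA per cell cannot be told apart.

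The replicates of KD largazole stood apart in these genes. The 45 tested genes summed to 6668 CPM in replicate 1 and 5581 CPM in replicate 2 of KD largazole, against 6097 and 5942 CPM in KD DMSO, 6549 and 6374 CPM in parental largazole and 6275 and 6176 CPM in parental DMSO. In KD largazole, 41 of 45 genes were higher in replicate 1, with a median log2 difference between replicates of 0.32, against 0.04 in KD DMSO, 0.06 in parental largazole and 0.01 in parental DMSO. The difference was larger for short transcripts. Its median was 0.44 for the 23 genes with a transcript under 1500 bases and 0.22 for the 22 longer ones, and Spearman's rho with length across the 45 genes was -0.70. Across all 12043 genes compared, rho was -0.65 in KD largazole, -0.35 in KD DMSO, -0.38 in parental largazole and -0.08 in parental DMSO, each a description of genes that share 2 libraries. The trend was thus present, and smaller, in KD DMSO and parental largazole. Rn45s, which encodes the precursor of ribosomal RNA, followed the same pattern. Its level was 23915 CPM in replicate 1 and 742 CPM in replicate 2 of KD largazole, 9963 and 2549 CPM in the replicates of KD DMSO, 7739 and 950 CPM in those of parental largazole and 1353 and 1212 CPM in those of parental DMSO. Chi-square per degree of freedom over the 45 genes was 34.3 between the KD largazole replicates, 3.97 in KD DMSO, 4.21 in parental largazole and 2.74 in parental DMSO, which is above the value of counting error alone in each group. Counts of calls, summaries by role and values of single genes that use KD largazole are therefore also given without each of its libraries where the call, the direction or the size, by over 1.5 times, changes.

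**Figure D1:**
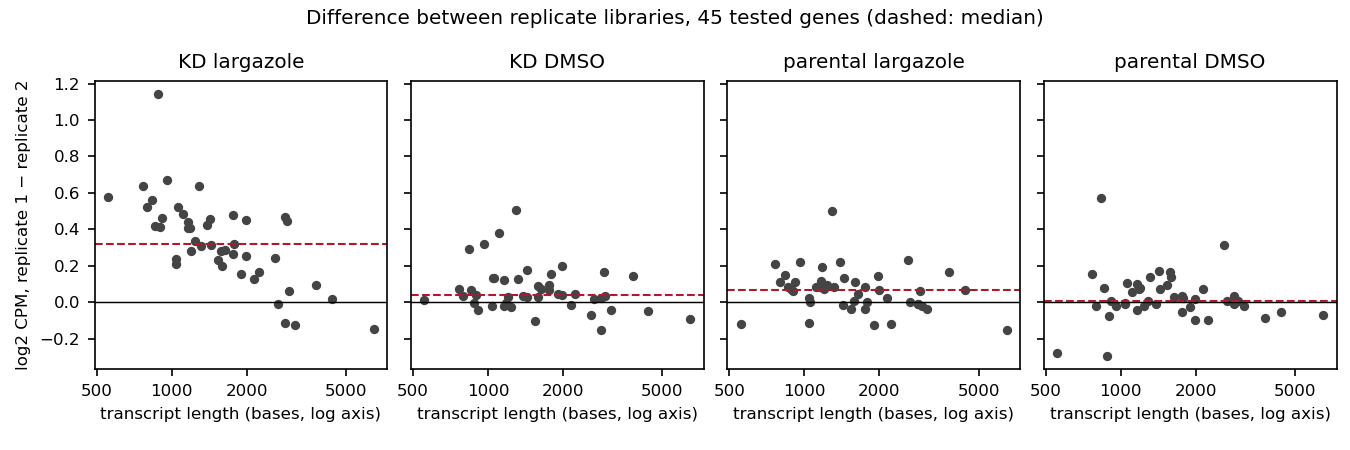
Difference between the replicate libraries of each group (log2 CPM of replicate 1 minus replicate 2, vertical axis) against transcript length (bases, log axis), with 1 point for each of the 45 tested genes and a dashed line at their median. In KD largazole the median is 0.32 and short transcripts lie highest, while the medians of the other groups are 0.04, 0.06 and 0.01.

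Levels were compared between genes per length of transcript, as CPM per kilobase. The 7 genes of the beta ring, of which the core holds equal numbers of protein copies, lay close together. In KD largazole they ran between 118 CPM per kilobase for Psmb7 and 174 for Psmb4, and in KD DMSO between 102 for Psmb1 and 151 for Psmb4. In parental largazole they ran between 109 for Psmb5 and 176 for Psmb4, and in parental DMSO between 99.7 for Psmb1 and 137 for Psmb4. The ratio of highest to lowest was 1.47, 1.47, 1.61 and 1.38 in these 4 groups. The 7 genes of the alpha ring, whose tails gate the entrance to the core, were more spread, with Psma2 lowest and Psma7 highest in every group and ratios of 4.55, 4.37, 4.13 and 3.91 in the same order. Psma2 and Psma3 have annotated transcripts of 2911 and 2846 bases, and lengths were taken from the annotation, not measured.

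The 6 ATPases of the cap ranged from 69.8 (Psmc6) to 122 (Psmc4) CPM per kilobase in KD largazole and from 77.7 (Psmc6) to 129 (Psmc4) in parental DMSO. Among its 11 other subunits Psmd2, a scaffold that binds ubiquitin receptors, was highest in every group, with 193 CPM per kilobase in KD largazole, 184 in KD DMSO, 219 in parental largazole and 204 in parental DMSO. Psmd11 was lowest in every group at 42.7 to 51.0 CPM per kilobase. The assembly chaperones were mostly below the subunits they assemble. The median of all 7 was 15.04 CPM per kilobase in KD largazole, 20.7 in KD DMSO, 15.8 in parental largazole and 20.7 in parental DMSO, against medians of 121, 112, 120 and 113 for the 14 genes of the 20S rings in the same 4 groups. The 3 chaperones of the base ran from 7.998 to 30.9 CPM per kilobase over the 4 groups, below every subunit of the cap, while Psmg2, at 38.6 to 42.0 CPM per kilobase, was close to the alpha subunit Psma2 at 37.0 to 44.8.

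Both genes with 0 counts are known from other tissues: Psma8 is the alpha subunit of the testis and Psmb11 the beta subunit of thymic epithelium. A count of 0 allowed up to 0.234 CPM in the shallowest and 0.198 CPM in the deepest library (3 counts per library, counting error only). Psmc3ip was taken in by its name alone. It encodes a partner of recombinases in meiosis and homologous recombination and is no proteasome subunit, but it is counted among the 45 wherever the rule is counted.

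**Figure D2:**
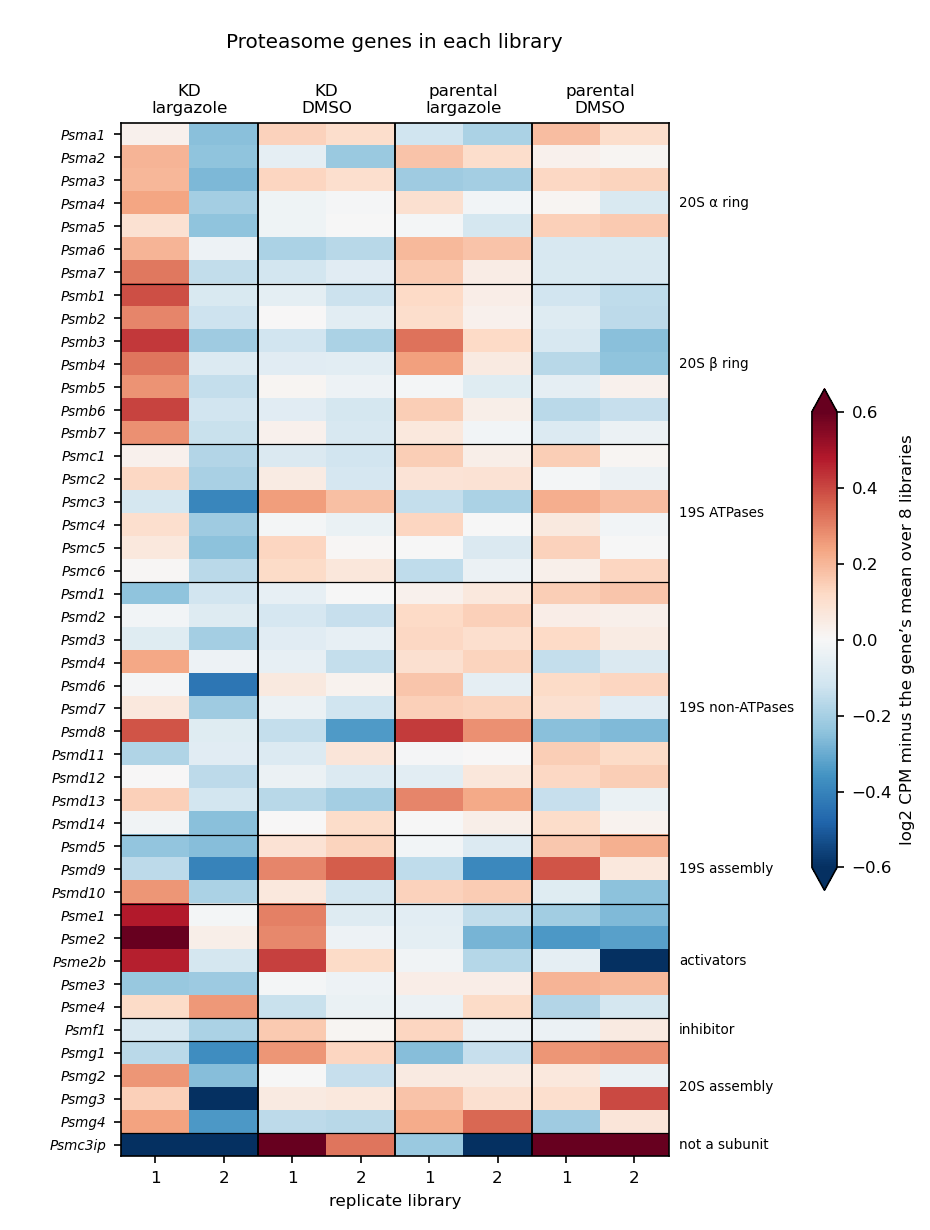
Level of each of the 45 tested genes in each of the 8 libraries, as log2 CPM minus that gene's mean over the 8 libraries (colour, from -0.6 to 0.6, with arrows for values beyond), grouped by role. The columns of KD largazole differ from each other more than those of any other group, and Psmd8 and Psma6 are redder, and Psmc3, Psmd9 and Psmg1 bluer, in largazole than in DMSO libraries.

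Largazole was then compared with DMSO within each genotype, which asks what the drug and its 18 h do to the RNA of the proteasome. The counts of called genes depended on the KD largazole library used. With all libraries, of 45 genes, 9 passed in KD cells (3 higher and 6 lower), where 48.2% of all 12517 tested genes passed (25.0% higher and 23.2% lower), and 11 passed in parental cells (4 higher and 7 lower), where 49.6% of all genes passed (26.9% higher and 22.7% lower, edgeR's quasi-likelihood test, Benjamini-Hochberg adjusted p under 0.05 over all genes). The median log2 fold change of the 45 was 0.01 in KD cells and 0.04 in parental cells, beside 0.01 and 0.03 over all genes. The median size of a change, without its sign, was 0.17 in KD cells and 0.17 in parental cells, beside 0.38 and 0.38 over all genes. Psmc3ip had the largest change in each genotype, and the other called genes had log2 fold changes between -0.61 and 0.61. In each genotype 2 genes were past 1.5-fold, where 33.9% of all genes were in KD and 34.8% in parental cells. The whole 95% interval lay within 1.5-fold in either direction for 35 genes in KD and 33 in parental cells. Both largazole libraries lay above both DMSO libraries for 6 genes in KD cells and below them for 13, beside 35.6% and 34.0% of all genes, and in parental cells for 20 above and 14 below, beside 42.2% and 38.9%.

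The 2 comparisons share no library. They had 7 calls in common, which were 77.8% of those in KD and 63.6% of those in parental cells, beside 81.3% and 79.0% of the calls over all genes, counted in the same direction. Psmd8, a non-ATPase subunit of the cap's lid, had 328 and 241 CPM in KD largazole beside 229 and 200 CPM in KD DMSO, with 338 and 306 CPM in parental largazole against 213 and 210 CPM in parental DMSO. It was higher in largazole in both genotypes without overlap. Its log2 fold change was 0.41 ± 0.13 in KD (SE, adjusted p = 0.0283) and 0.61 ± 0.13 in parental cells (adjusted p = 0.00380). The parental call held without any 1 library, while the KD call was lost without KD largazole replicate 1 or KD DMSO replicate 2 (adjusted p up to 0.176). The KD value was 0.16 without KD largazole replicate 1 and 0.61 without replicate 2. Psma6, an alpha-ring subunit, had 137 and 116 CPM in KD largazole beside 104 and 106 CPM in KD DMSO, with 136 and 134 CPM in parental largazole against 111 and 111 CPM in parental DMSO. These groups did not overlap either, and the log2 fold changes were 0.27 ± 0.09 in KD (adjusted p = 0.0316) and 0.28 ± 0.09 in parental cells (adjusted p = 0.0263). The KD call of Psma6 was lost without KD largazole replicate 1 (log2 fold change 0.14), either KD DMSO library, either parental DMSO library or parental largazole replicate 1 (adjusted p up to 0.143). Its parental call was lost without any 1 of the 4 parental libraries or KD DMSO replicate 2 (up to 0.140).

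The other 5 shared calls were lower in largazole, and 3 of them are assembly chaperones. Psmd9, which escorts ATPases into the base of the cap, had 22.5 and 19.02 CPM in KD largazole beside 30.8 and 32.3 CPM in KD DMSO, with 22.6 and 19.2 CPM in parental largazole against 32.7 and 26.2 CPM in parental DMSO. It fell by 0.61 ± 0.15 on the log2 scale in KD (adjusted p = 0.00701) and by 0.49 ± 0.15 in parental cells (adjusted p = 0.0187). Psmd5, another chaperone of the base, had 101 and 99.8 CPM in KD largazole beside 127 and 131 CPM in KD DMSO, with 118 and 113 CPM in parental largazole against 133 and 138 CPM in parental DMSO. It fell by 0.36 ± 0.08 in KD (adjusted p = 0.00316) and by 0.24 ± 0.07 in parental cells (adjusted p = 0.0238). Psmg1, which with Psmg2 starts the alpha ring, had 16.8 and 14.6 CPM in KD largazole beside 22.7 and 20.6 CPM in KD DMSO, with 15.8 and 17.1 CPM in parental largazole against 22.6 and 22.8 CPM in parental DMSO. All 3 chaperones were lower in every largazole library than in every DMSO library of the same genotype. Psmg1 fell by 0.47 ± 0.13 in KD (adjusted p = 0.0139) and by 0.46 ± 0.13 in parental cells (adjusted p = 0.0130). The other 4 chaperones did not pass: Psmd10 had log2 fold changes of 0.07 in KD and 0.30 in parental cells, Psmg2 of 0.09 and 0.04, Psmg3 of -0.41 and -0.13, and Psmg4 of 0.13 and 0.34. The KD values of these 4 turned sign with the library. They were -0.18, -0.19, -1.08 and -0.19 for Psmd10, Psmg2, Psmg3 and Psmg4 without KD largazole replicate 1, where Psmg3 passed (adjusted p = 0.00109). Without replicate 2 they were 0.28, 0.33, 0.08 and 0.40, where Psmg2 passed (adjusted p = 0.0150).

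Psmc3, an ATPase of the cap, had 166 and 136 CPM in KD largazole beside 211 and 201 CPM in KD DMSO, with 161 and 156 CPM in parental largazole against 207 and 203 CPM in parental DMSO. It fell by 0.46 ± 0.10 in KD (adjusted p = 0.00316) and by 0.37 ± 0.10 in parental cells (adjusted p = 0.00920), without overlap. Its 5 fellow ATPases did not pass, with log2 fold changes of -0.17 to 0.03 in KD and -0.17 to 0.11 in parental cells. In KD, Psmc1, Psmc2, Psmc4, Psmc5 and Psmc6 were -0.08, -0.18, -0.19, -0.32 and -0.26 without KD largazole replicate 1. Without replicate 2 they were 0.12, 0.14, 0.12, -0.01 and -0.09. Psmc3ip had the largest change among the 45, with 2.81 and 1.75 CPM in KD largazole beside 8.63 and 6.04 CPM in KD DMSO, with 4.15 and 2.90 CPM in parental largazole against 9.91 and 9.85 CPM in parental DMSO. It fell by 1.71 ± 0.30 in KD (adjusted p = 0.00103) and by 1.49 ± 0.26 in parental cells (adjusted p = 0.00102). Without any 1 library the calls of Psmc3, Psmc3ip, Psmd5 and Psmd9 held in KD, while that of Psmg1 was lost there without KD DMSO replicate 1 (adjusted p = 0.0909). In parental cells that of Psmc3ip held. There Psmc3 and Psmd9 lost theirs without parental DMSO replicate 1 or parental largazole replicate 2 (up to 0.0525 and 0.151), Psmg1 without either parental DMSO library or parental largazole replicate 1 (up to 0.0892), and Psmd5 without any 1 of the 4 parental libraries (up to 0.139).

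The promoters of 5 of the 7 genes called in both genotypes (those of Psmc3 and of Psmc3ip, which is no subunit, are not shown), and of the catalytic Psmb5 and Psmb6, are shown so that what genes of like response share in sequence can be read. They are RefSeq sequences on GRCm38.p6, 250 bases before to 50 after the annotated start, read 5′ to 3′ along the gene. In all, 39 of the 47 genes matched, with 42 promoters. Capitals mark TGACNNNGC, the core of the antioxidant element that Nfe2l1 and Nfe2l2 bind, GGGCGG, a GC box, and CCGGAAG, a core bound by ETS factors, on either strand. In Psmd9 the element and the GC box overlap, and for Psma6 the start of its principal transcript was used.
Psma6 (chr12:55398575-55398874, plus strand): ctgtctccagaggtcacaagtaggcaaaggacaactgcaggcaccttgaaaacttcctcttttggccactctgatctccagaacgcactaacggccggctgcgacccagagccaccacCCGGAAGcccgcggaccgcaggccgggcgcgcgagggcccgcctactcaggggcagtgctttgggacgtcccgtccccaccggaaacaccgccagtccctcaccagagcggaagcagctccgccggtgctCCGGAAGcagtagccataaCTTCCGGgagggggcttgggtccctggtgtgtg
Psmd8 (chr7:29180624-29180923, minus strand): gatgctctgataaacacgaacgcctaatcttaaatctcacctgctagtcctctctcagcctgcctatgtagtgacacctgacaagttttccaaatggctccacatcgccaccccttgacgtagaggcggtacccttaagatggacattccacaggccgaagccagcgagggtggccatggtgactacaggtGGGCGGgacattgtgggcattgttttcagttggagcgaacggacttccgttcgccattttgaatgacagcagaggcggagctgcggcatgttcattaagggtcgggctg
Psmd5 (chr2:34870913-34871212, minus strand): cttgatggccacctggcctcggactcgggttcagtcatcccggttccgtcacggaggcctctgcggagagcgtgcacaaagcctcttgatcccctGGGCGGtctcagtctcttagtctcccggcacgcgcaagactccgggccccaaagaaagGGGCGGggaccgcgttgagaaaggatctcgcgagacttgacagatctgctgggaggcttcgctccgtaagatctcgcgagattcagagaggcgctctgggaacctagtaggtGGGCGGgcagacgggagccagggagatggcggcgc
Psmd9 (chr5:123227940-123228239, plus strand): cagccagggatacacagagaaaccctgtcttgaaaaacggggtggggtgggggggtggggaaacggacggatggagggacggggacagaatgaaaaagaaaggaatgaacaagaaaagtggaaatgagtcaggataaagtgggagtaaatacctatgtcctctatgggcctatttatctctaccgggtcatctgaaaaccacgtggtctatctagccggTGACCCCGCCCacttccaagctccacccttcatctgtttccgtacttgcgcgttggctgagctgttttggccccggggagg
Psmg1 (chr16:95990911-95991210, minus strand): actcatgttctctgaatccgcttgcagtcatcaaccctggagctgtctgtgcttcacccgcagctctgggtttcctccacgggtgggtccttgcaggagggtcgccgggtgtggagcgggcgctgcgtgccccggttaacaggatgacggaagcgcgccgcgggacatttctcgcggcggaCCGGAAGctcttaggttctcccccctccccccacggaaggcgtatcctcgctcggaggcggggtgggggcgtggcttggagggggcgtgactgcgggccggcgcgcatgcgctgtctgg
Psmb5 (chr14:54617946-54618245, minus strand): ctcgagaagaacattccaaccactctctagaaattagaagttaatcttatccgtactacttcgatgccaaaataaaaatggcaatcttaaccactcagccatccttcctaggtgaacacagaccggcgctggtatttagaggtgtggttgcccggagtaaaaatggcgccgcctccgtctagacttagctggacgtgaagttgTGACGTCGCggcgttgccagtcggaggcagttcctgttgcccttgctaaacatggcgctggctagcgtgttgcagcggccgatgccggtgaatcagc
Psmb6 (chr11:70525107-70525406, plus strand): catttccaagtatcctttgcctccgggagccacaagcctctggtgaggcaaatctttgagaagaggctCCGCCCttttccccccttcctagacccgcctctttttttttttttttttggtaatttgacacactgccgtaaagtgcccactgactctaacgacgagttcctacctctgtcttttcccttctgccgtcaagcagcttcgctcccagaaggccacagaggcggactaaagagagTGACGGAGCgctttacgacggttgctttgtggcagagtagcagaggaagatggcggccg

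TGACNNNGC was present in 6 of the 42 promoters (14.3%), those of Psmb5, Psmb6, Psmc6, Psmd9, Psmd12 and Psme4, beside 12.4% of all 32851 RefSeq promoters of the same length. The longer form TGACTCAGC was in none of the 42 and in 0.454% of all. CCGGAAG was in 16 (38.1%) beside 8.86% of all, GGGCGG in 23 (54.8%) beside 35.7%, and CCAAT, the letters of the NF-Y box, in 14 (33.3%) beside 37.4%. The cell cycle element TTTGAA was in 3 (7.14%) beside 17.9%, and the cyclic AMP element TGACGTCA was in none beside 1.79%. Each letter string was searched on both strands. Of the strings in capitals, among the 2 genes shown that rose in both genotypes, Psma6 holds 3 matches to CCGGAAG and Psmd8 1 match to GGGCGG. Among the 3 that fell, Psmd5 holds 3 matches to GGGCGG. Psmd9 holds 1 match to GGGCGG and 1 to TGACNNNGC, and Psmg1 holds 1 match to CCGGAAG. No letter string searched was in all 5. These matches describe letters and no binding was measured.

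The remaining calls were in 1 genotype. In KD cells Psme4, an activator that binds the core without ATP, had 254 and 281 CPM in KD largazole beside 214 and 228 CPM in KD DMSO, a log2 fold change of 0.28 ± 0.09 (adjusted p = 0.0231). Psme3, the nuclear activator, had 131 and 132 CPM in KD largazole beside 152 and 150 CPM in KD DMSO and fell by 0.20 ± 0.07 (adjusted p = 0.0363). These groups did not overlap. In parental cells the values for the same genes were 0.18 (adjusted p = 0.107) and -0.16 (adjusted p = 0.0806), with the same sign. The Psme4 call was lost without either KD DMSO library (up to 0.159) and the Psme3 call without any 1 library other than the KD largazole ones (up to 0.139).

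In parental cells Psmb4, a beta-ring subunit, had 222 and 194 CPM in parental largazole against 167 and 159 CPM in parental DMSO (log2 fold change 0.36 ± 0.12, adjusted p = 0.0340). Psmd13, a lid subunit, had 205 and 196 CPM against 152 and 163 CPM in the same 2 groups (0.35 ± 0.09, adjusted p = 0.0110). The alpha-ring genes Psma3, with 140 and 141 CPM in parental largazole against 177 and 179 CPM in parental DMSO, and Psma1, with 149 and 142 CPM against 184 and 174 CPM, were lower. Each of these 4 pairs of groups was apart. Psma3 fell by 0.34 ± 0.13 (adjusted p = 0.0466) and Psma1 by 0.30 ± 0.10 (adjusted p = 0.0247). In KD cells the log2 fold changes of Psmb4, Psmd13, Psma3 and Psma1 were 0.20, 0.21, -0.13 and -0.23, and none passed with all libraries. In the same order, the KD values were -0.02, 0.07, -0.39 and -0.38 without KD largazole replicate 1. Without replicate 2 they were 0.39, 0.32, 0.08 and -0.10, so the signs of Psmb4 and Psma3 turned with the library. Each of the 4 parental calls was lost without parental DMSO replicate 1 or parental largazole replicate 1, those of Psmb4, Psma3 and Psma1 also without parental DMSO replicate 2, those of Psma3 and Psma1 without parental largazole replicate 2, and those of Psmb4 and Psma3 without either KD DMSO library (adjusted p up to 0.224 for Psmb4, 0.113 for Psmd13, 0.152 for Psma3 and 0.122 for Psma1).

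**Figure D3:**
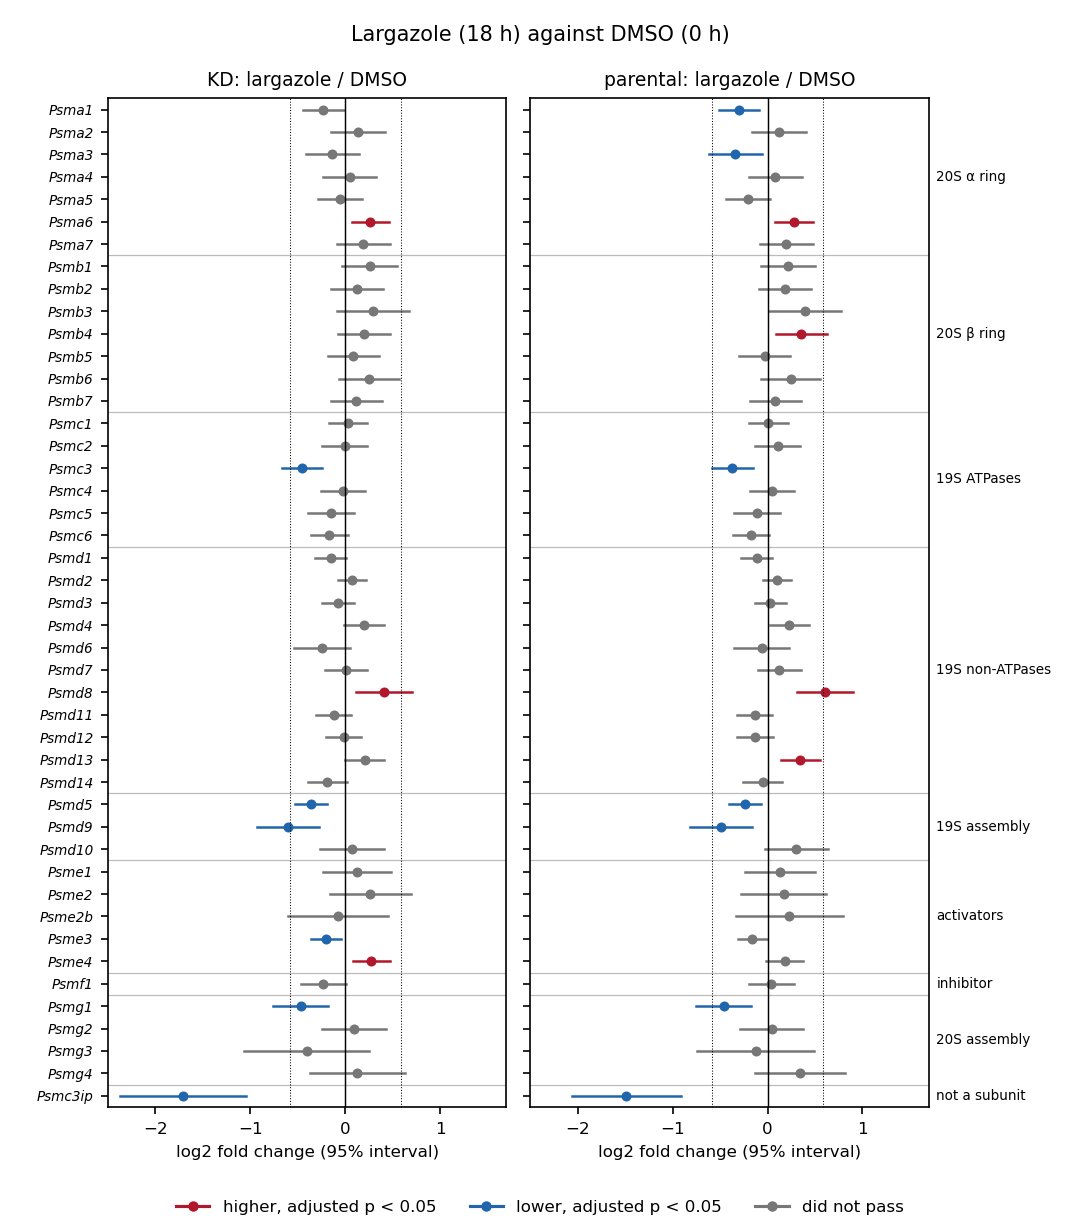
Log2 fold change of largazole (18 h) over DMSO (0 h) for each of the 45 tested genes, with its 95% interval, in KD (left) and parental cells (right). Red and blue points passed the test, and dotted lines mark 1.5-fold. In KD cells 3 genes are red and 6 blue, in parental cells 4 and 7, and most others lie between the dotted lines.

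By role, the 14 genes of the core rings had a median log2 fold change of 0.13 in KD and 0.15 in parental cells, with 1 called in KD (higher) and 4 in parental cells (2 higher, 2 lower). All 7 genes of the beta ring were positive in KD (0.09 to 0.29) and 6 of 7 in parental cells (-0.03 to 0.40, all 7 with upper-quartile scaling or library totals), where Psmb4 alone passed. In KD the sign of the whole beta ring turned with the library: without KD largazole replicate 1 all 7 were negative (-0.14 to -0.003), and without replicate 2 all 7 were positive (0.28 to 0.57). The median of the 14 core genes in KD was -0.10 without replicate 1 and 0.33 without replicate 2. The 17 genes of the cap ran from -0.46 to 0.41 in KD and from -0.37 to 0.61 in parental cells, with 2 called in KD (1 higher, 1 lower) and 3 in parental cells (2 higher, 1 lower). Their median in KD was -0.14 without replicate 1 and 0.06 without replicate 2, with 6 and 5 called. The 7 assembly chaperones had medians of -0.36 in KD and -0.13 in parental cells, with 3 called lower in each genotype, beside 23.2% and 22.7% of all genes called lower. The KD median was -0.37 without KD largazole replicate 1, with all 7 negative, and 0.08 without replicate 2, with 4 of 7 positive. The 3 called chaperones, Psmd5, Psmd9 and Psmg1, were called lower both ways.

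The 2 KD largazole libraries gave different sets of calls. Without replicate 1, which has more of the short transcripts, 16 genes passed in KD cells (1 higher and 15 lower), 35.6% beside 52.3% of all genes. Without replicate 2 it was 25 (18 higher and 7 lower), 55.6% beside 55.3% of all genes. Of these, 7 had the same direction both ways: Psme4 higher, and Psmc3, Psmc3ip, Psmd5, Psmd9, Psme3 and Psmg1 lower. All 7 beta-ring genes were called higher without replicate 2 and none without replicate 1. The parental comparison holds no KD library but shares its estimate of the spread with them. Without KD largazole replicate 1 or 2 it had 22 and 23 calls, beside 61.1% and 61.3% of all genes, 22 of them the same, with 12 higher in each (among them Psmb1, Psmb2, Psmb3, Psmb4 and Psmb6). Fewer of the 45 were called in KD cells without 1 or the other KD DMSO library, and in parental cells without any 1 parental library. The share of all genes called fell too in each of these fits. Other settings ended calls too. With upper-quartile scaling the KD call of Psme3 and the parental calls of Psma1, Psma3 and Psmd5 were lost, and with library totals those of Psme3, Psma3 and Psmd5. By DESeq2 the KD calls of Psma6 and Psme3 were lost, and with only the libraries compared the KD calls of Psma6, Psmd8, Psme3, Psme4 and Psmg1. The filter on low counts decided the parental call of Psmb4 when left out, and the parental call of Psma3 and the KD call of Psme3 when made stricter.

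The catalytic subunits of the core were described in each library. Psmb5, the chymotrypsin-like site and the main target of bortezomib, had 122 and 91.8 CPM in KD largazole, 102 and 99.2 CPM in KD DMSO, 101 and 96.3 CPM in parental largazole, and 97.7 and 103 CPM in parental DMSO. Psmb6, the caspase-like site, had 137 and 95.3 CPM in KD largazole, 98.6 and 96.1 CPM in KD DMSO, 114 and 106 CPM in parental largazole, and 92.4 and 93.7 CPM in parental DMSO. Psmb7, the trypsin-like site, had 156 and 117 CPM in KD largazole, 131 and 121 CPM in KD DMSO, 135 and 127 CPM in parental largazole, and 122 and 126 CPM in parental DMSO. For all 3 the KD largazole pair straddled the KD DMSO pair, and the parental groups were apart, higher in largazole, for Psmb6 and Psmb7 but not for Psmb5. The log2 fold changes of largazole were 0.09, 0.25 and 0.12 for Psmb5, Psmb6 and Psmb7 in KD and -0.03, 0.24 and 0.08 in parental cells. None of these 6 passed (adjusted p 0.164 to 0.865). The KD values were -0.14, -0.03 and -0.11 without KD largazole replicate 1 and none passed, and without replicate 2 they were 0.28, 0.49 and 0.30 and all 3 passed.

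The knockdown was compared with parental cells in each condition, which asks whether lowering PRDX6 moves the proteasome genes. Under largazole 2 of 45 genes passed, both lower in KD, where 18.3% of all genes passed (8.51% higher and 9.81% lower). Psme3 had 131 and 132 CPM in KD largazole compared with 158 and 158 CPM in parental largazole and fell by 0.26 ± 0.07 (adjusted p = 0.0271). Psmd3, a lid subunit, had 254 and 232 CPM in KD largazole compared with 291 and 287 CPM in parental largazole and fell by 0.25 ± 0.07 (adjusted p = 0.0428). Neither pair of groups overlapped. The median of the 45 was -0.08, beside -0.0031 over all genes, and 33 of 45 were negative (28 with upper-quartile scaling), beside 50.5% of all genes. All 11 non-ATPase genes of the cap had negative values (-0.27 to -0.01), of which Psmd3 alone passed, against 10 of 11 negative with upper-quartile scaling. All 11 were negative and 7 passed without KD largazole replicate 1, and 9 were negative and 2 passed without replicate 2. The 3 chaperones of the base and the 4 of the core were negative too (-0.48 to -0.01) and none passed, with 1 of the 3 positive under upper-quartile scaling. Of these 7, 5 were positive and none passed without KD largazole replicate 2 (Psmg2 0.21 and Psmd10 0.12 at the top). Without replicate 1 all 7 were negative and Psmg2, Psmg3 and Psmg4 passed (-0.31, -1.15 and -0.63). The groups did not overlap for 2 genes higher and 12 lower in KD, beside 25.6% and 27.8% of all genes.

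Both calls depended on single libraries. Each was lost without any 1 library other than the KD largazole ones (adjusted p up to 0.173 for Psme3 and 0.197 for Psmd3), when no gene of the 45 passed. Without KD largazole replicate 1, 22 genes passed (1 higher and 21 lower in KD), 48.9% beside 26.2% of all genes. Without replicate 2 it was 12 (9 higher and 3 lower), 26.7% beside 32.7% of all genes. Psme3 and Psmd3 alone were shared with the same direction. With only the libraries compared both calls were lost, and with upper-quartile scaling or no filter on low counts that of Psmd3. Psme3 was -0.26 in both fits (adjusted p = 0.0156 and 0.0119), and Psmd3 was -0.32 (adjusted p = 0.00317) and -0.18 (adjusted p = 0.0470). The median of the 45 was -0.22 without replicate 1 and 0.07 without replicate 2, so its direction turned with the library.

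In DMSO none of the 45 genes passed by edgeR, DESeq2 or limma-voom, where 11.0% of all genes passed by edgeR (7.01% higher and 4.02% lower), and 6 had an unadjusted p under 0.05. The smallest adjusted p was 0.0728, of Psme3, with 152 and 150 CPM in KD DMSO against 176 and 175 CPM in parental DMSO (log2 fold change -0.22). The median of the 45 was -0.01, beside 0.00 over all genes, and 39 had their whole 95% interval within 1.5-fold, as many as under largazole. Groups did not overlap for 6 genes higher and 15 lower, beside 30.5% and 30.3% of all genes. The beta ring lay between 0.00 and 0.14. Without KD largazole replicate 1 or 2, libraries outside this comparison that enter through the shared spread, 7 and 9 genes passed, beside 23.2% of all genes in each. They shared 7: Psme1, Psme2 and Psme2b higher (0.36, 0.48 and 0.60 without replicate 1), and Psmd1, Psmd2, Psmd12 and Psme3 lower (-0.18, -0.15, -0.19 and -0.22).

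**Figure D4:**
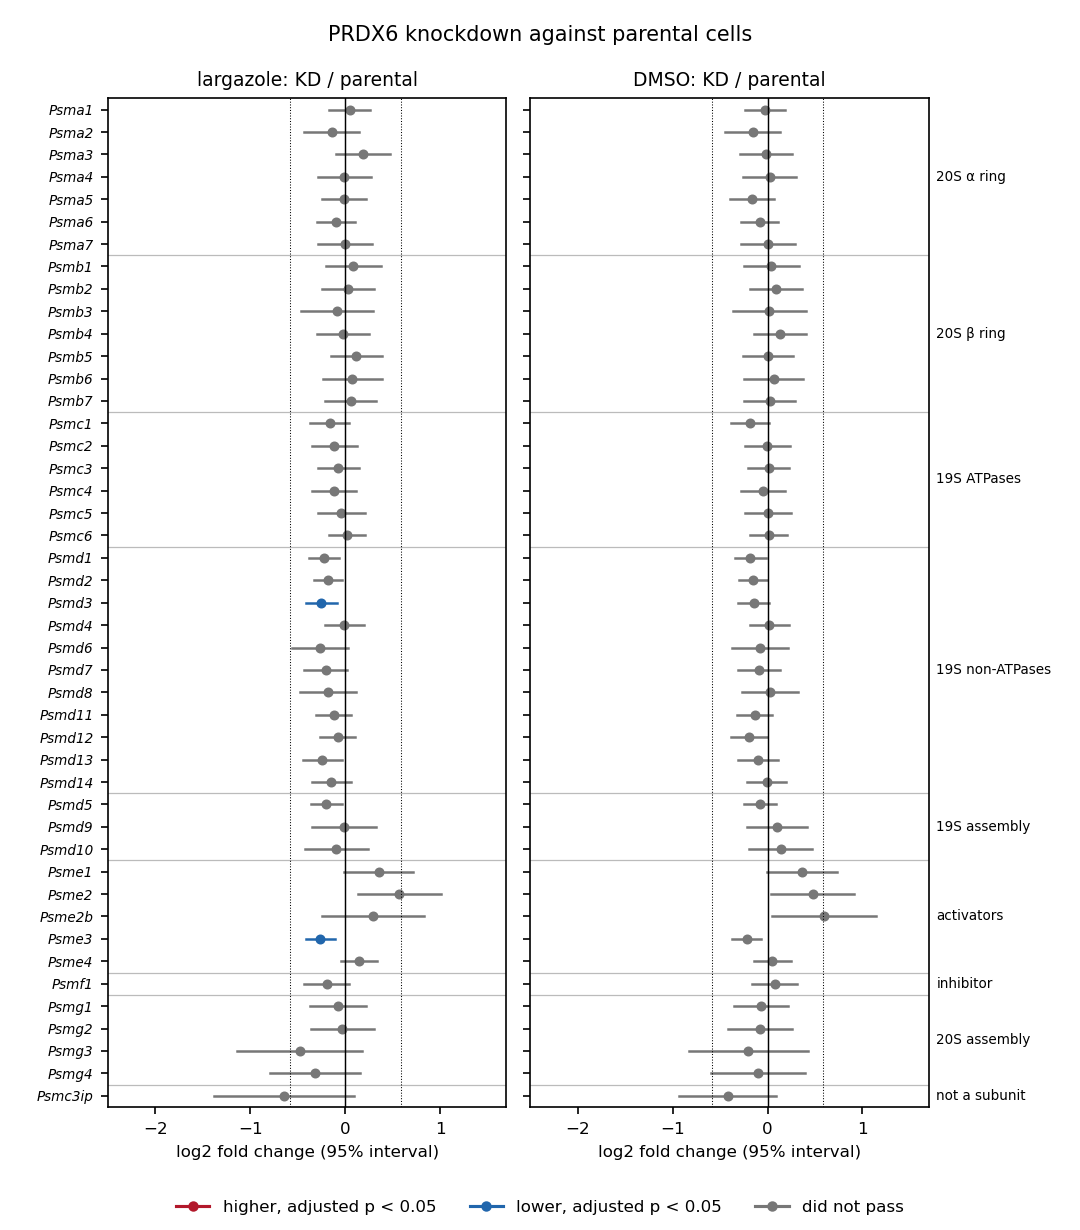
Log2 fold change of KD over parental cells for each of the 45 tested genes, with its 95% interval, under largazole (left) and in DMSO (right). Blue points passed the test, lower in KD, and dotted lines mark 1.5-fold. Psme3 and Psmd3 are the 2 genes that passed under largazole, and none passed in DMSO. Psme2 lies farthest to the right under largazole and Psme2b in DMSO.

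Psme1 and Psme2 form the activator that interferon induces, and Psme2b is a single-exon gene whose coding sequence is 99.3% identical to that of Psme2. Psme2 had 71.5 and 44.98 CPM in KD largazole compared with 42.1 and 36.1 CPM in parental largazole, and 53.6 and 42.9 CPM in KD DMSO against 34.5 and 35.02 CPM in parental DMSO. Psme1 had 71.3 and 51.0 CPM in KD largazole compared with 49.1 and 46.3 CPM in parental largazole, and 63.3 and 48.7 CPM in KD DMSO against 44.4 and 42.8 CPM in parental DMSO. The KD libraries were above the parental ones in each case, but the spread within KD was wide and neither gene passed with all libraries (log2 fold change 0.57 and 0.47 for Psme2, adjusted p = 0.0693 and 0.168, and 0.36 and 0.36 for Psme1, adjusted p = 0.165 and 0.206). Under largazole 1 library decided both: without KD largazole replicate 2 Psme2 passed at 0.87 (adjusted p = 0.000118) and Psme1 at 0.58 (adjusted p = 0.00264), and without replicate 1 they were 0.20 and 0.10 and did not pass. Psme2b had 12.3 and 8.29 CPM in KD largazole compared with 8.79 and 7.91 CPM in parental largazole, and 11.9 and 9.65 CPM in KD DMSO against 8.58 and 5.73 CPM in parental DMSO. Its groups overlapped under largazole and were apart in DMSO, and neither value passed (0.29, adjusted p = 0.447, and 0.60, adjusted p = 0.164). Under largazole its value was 0.56 without KD largazole replicate 2 and -0.01 without replicate 1. Psme2 and Psme2b are the 2 genes among the 47 with fractional counts, in 5 of 8 libraries. Reads of near-identical genes can be divided between them, so their values may not be independent.

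The difference between the largazole responses of KD and parental cells was tested for each gene. None of the 45 passed by edgeR, DESeq2 or limma-voom, none had an unadjusted p under 0.05, and the smallest adjusted p was 0.705, where 0.208% of all genes passed by edgeR (0.032% higher and 0.176% lower). The differences ran from -0.30 to 0.20 on the log2 scale, with a median of -0.04 beside -0.03 over all genes. The whole 95% interval lay within 1.5-fold for 34 genes, and for the other 11 it reached past that size. Without KD largazole replicate 1 Psmd8 passed, with a lower response in KD (-0.44), and without replicate 2 Psma3 passed, with a higher response in KD (0.43). The median of the 45 was -0.23 without replicate 1 and 0.10 without replicate 2.

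The 3 inducible subunits, which replace Psmb5, Psmb6 and Psmb7 in the immunoproteasome, were read beside the constitutive ones because they are left out by the rule. Psmb8 had 32.9 and 22.5 CPM in KD largazole compared with 13.7 and 12.1 CPM in parental largazole, and 32.3 and 23.4 CPM in KD DMSO against 11.2 and 12.6 CPM in parental DMSO. It rose with the knockdown by 1.10 ± 0.21 under largazole (adjusted p = 0.00665) and by 1.22 ± 0.21 in DMSO (adjusted p = 0.00556). Psmb10 had 8.03 and 7.48 CPM in KD largazole compared with 2.79 and 3.56 CPM in parental largazole, and 17.2 and 14.1 CPM in KD DMSO against 8.65 and 8.91 CPM in parental DMSO. It was higher in KD in both conditions (1.28, adjusted p = 0.00283, and 0.84, adjusted p = 0.0109) and with largazole it fell by 1.02 in KD (adjusted p = 0.000820). In parental cells Psmb10 fell by 1.46 with largazole (adjusted p = 0.000279). Psmb9 was the third and rose with largazole, by 0.95 in KD (adjusted p = 0.0137) and 1.26 in parental cells (adjusted p = 0.00775), while its knockdown values of 0.56 and 0.88 did not pass (adjusted p = 0.154 and 0.132).

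Psmb9 had 6.86 and 4.52 CPM in KD largazole beside 3.16 and 2.65 CPM in KD DMSO, with 3.88 and 3.76 CPM in parental largazole against 1.40 and 1.75 CPM in parental DMSO. Per kilobase, Psmb8 stood at 14.2 ± 0.955% of Psmb5 in KD largazole, 15.2 ± 3.18% in KD DMSO, 7.23 ± 0.396% in parental largazole and 6.56 ± 0.292% in parental DMSO (SD, 2 libraries each). Psmb10 stood at 5.10 ± 0.769% of Psmb7 in KD largazole, 11.0 ± 0.855% in KD DMSO, 2.15 ± 0.451% in parental largazole and 6.28 ± 0.00648% in parental DMSO. Psmb9 was at 1.00 to 2.88% of Psmb6. The constitutive subunit was thus the more abundant RNA in each of the 3 pairs and each group. Some of these calls depend on a library: Psmb8 lost its call under largazole without parental largazole replicate 2 (adjusted p = 0.0647) and in DMSO without KD DMSO or parental DMSO replicate 1 (up to 0.0748), Psmb10 in DMSO without KD DMSO replicate 1 or either parental DMSO library (up to 0.125), and Psmb9 with largazole without KD largazole replicate 1 or KD DMSO replicate 2 in KD (up to 0.0841) and without parental DMSO replicate 1 in parental cells (0.0594). The KD call of Psmb9 was lost by DESeq2 too, and its KD value was 0.62 without KD largazole replicate 1. For the knockdown under largazole Psmb9 was 0.24 without KD largazole replicate 1 and 0.85 without replicate 2.

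**Figure D5:**
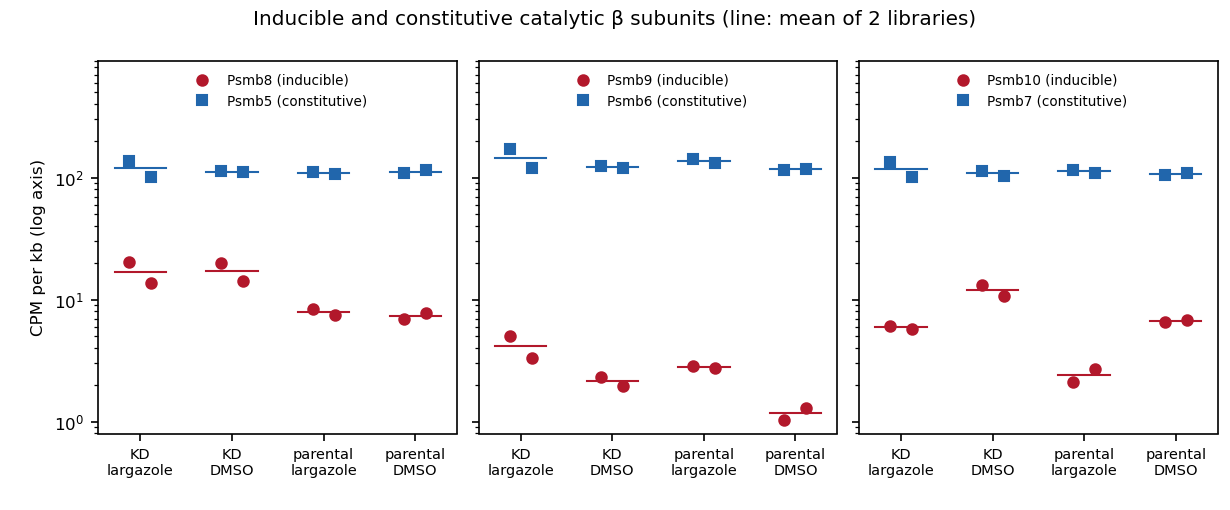
Level of each constitutive catalytic subunit (blue squares) and the inducible subunit that replaces it (red circles) in each library, as CPM per kilobase on a log axis, with lines at the mean of the 2 libraries of a group. The squares lie above the circles in every library, Psmb8 and Psmb10 lie higher in KD than in parental cells of the same condition, and Psmb10 lies lower in largazole than in DMSO.

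Of 29 other genes of the pathway, all tested, 8 passed in KD cells with largazole (1 higher and 7 lower), 27.6% beside 48.2% of all genes. In parental cells 9 passed (1 higher and 8 lower), 31.0% beside 49.6% of all genes. The count in KD changed without each KD largazole library, as did the share of all genes called. Vcp, the ATPase that pulls ubiquitinated proteins out of complexes, had 743 and 756 CPM in KD largazole beside 970 and 966 CPM in KD DMSO and fell by 0.37 ± 0.07 (adjusted p = 0.00139). In parental cells Vcp fell by 0.33 ± 0.07 (adjusted p = 0.00237). Ubqln4, a shuttle that brings substrates to the cap, fell by 0.56 ± 0.08 in KD (adjusted p = 0.000247) and by 0.46 ± 0.08 in parental cells (adjusted p = 0.000784). The deubiquitinases of the cap were both lower: Usp14 fell by 0.37 in KD (adjusted p = 0.00220) and 0.34 in parental cells (adjusted p = 0.00343), and Uchl5 by 0.55 (adjusted p = 0.0103) and 0.47 (adjusted p = 0.0183). Exons of Usp14 overlap those of Thoc1 on the other strand over 2169 bases, and the strand setting of the counting is not given. With only the libraries compared the KD call of Uchl5 was lost, and without KD largazole replicate 2 its value was -0.32. Calls of Vcp, Ubqln4 and Usp14 held in both genotypes without any 1 library, and that of Uchl5 was lost without KD DMSO replicate 1 in KD (adjusted p = 0.0576) and without any 1 of the 4 parental libraries in parental cells (up to 0.0843).

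Nfe2l1, the factor that raises subunit genes, had 295 and 312 CPM in KD largazole beside 361 and 356 CPM in KD DMSO, with 327 and 307 CPM in parental largazole against 373 and 369 CPM in parental DMSO. It fell by 0.24 ± 0.07 in KD (adjusted p = 0.0183) and 0.23 ± 0.07 in parental cells (adjusted p = 0.0228), without overlap. Both calls were lost without either DMSO library of the same genotype, the KD call also without either parental DMSO library (up to 0.0922) and the parental call without either parental largazole library (up to 0.141). They were also lost with upper-quartile scaling or library totals, and the KD call with only the libraries compared. Ube3c, a ligase that works on the proteasome, was the 1 gene higher in both genotypes, by 0.27 in KD (adjusted p = 0.0291) and 0.29 in parental cells (adjusted p = 0.0186). Those calls were lost without either DMSO library of the same genotype, without either parental DMSO library or KD largazole replicate 2 in KD (up to 0.160), and without parental largazole replicate 2 in parental cells (up to 0.175). The KD value was 0.16 without KD largazole replicate 2, and the KD call was lost also without the filter on low counts and with only the libraries compared. Akirin2, which carries the proteasome into the nucleus, fell in parental cells by 0.47 ± 0.09 (adjusted p = 0.00238), a call that held without any 1 library. Its KD value of -0.23 did not pass (adjusted p = 0.0722). That value was -0.32 without KD largazole replicate 1 and -0.15 without replicate 2.

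Pomp, which matures the core, and Adrm1, a ubiquitin receptor of the cap, did not pass in any comparison with all libraries. In the 4 comparisons of groups the log2 fold changes were 0.03 to 0.11 for Pomp and -0.17 to 0.08 for Adrm1. For largazole in KD the Adrm1 value was -0.04 without KD largazole replicate 1 and 0.19 without replicate 2. For the knockdown under largazole the Adrm1 value was -0.23 without replicate 1 and -0.0001 without replicate 2. Pomp passed without KD largazole replicate 2 for largazole in KD (0.38) and for the knockdown under largazole (0.36), and without replicate 1 these values were -0.22 and -0.23. With the knockdown under largazole 6 of the 29 passed, 20.7% beside 18.3% of all genes. That count changed without each KD largazole library, as did the share of all genes called. Ngly1, which processes Nfe2l1, rose by 0.48 (adjusted p = 0.0293), the ubiquitin gene Ubb by 0.40 (adjusted p = 0.0229) and Zfand5, a proteasome activator, by 0.34 (adjusted p = 0.0193). The shuttle genes Ubqln1 and Ubqln2 fell by 0.33 (adjusted p = 0.0229) and 0.35 (adjusted p = 0.0457), and Zfand2a by 0.32 (adjusted p = 0.0415). Ubb was 0.23 and Ubqln2 -0.20 without KD largazole replicate 1. In DMSO 2 passed, 6.90% beside 11.0% of all genes, Zfand5 higher (0.31, adjusted p = 0.0426) and Nfe2l2 lower (-0.29, adjusted p = 0.0356). None of the 29 passed in the difference between responses by edgeR with all libraries. Some did without KD largazole replicate 2, where more of all genes passed too. Each of these knockdown calls was lost without either parental library of its condition, and all but those of Ubb and Zfand5 under largazole also without libraries of other groups, with adjusted p up to 0.265 under largazole and 0.323 in DMSO. The DMSO count was 8 without KD largazole replicate 1 and 10 without replicate 2, beside 23.2% of all genes in each. With only the libraries compared all 6 calls under largazole were lost, and DESeq2 lost those of Ngly1 and Zfand2a there and of Zfand5 in DMSO. Scalings or filters ended those of Ubqln2 and Zfand2a under largazole and of Nfe2l2 and Zfand5 in DMSO.

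The counting limits which genes can be read alone. Of the 47 genes, 18 have another annotated gene with at least 90% identity over at least 200 bases (35 such copies, most of them processed pseudogenes, and 5 of them among the genes of the files), and reads of such copies may have been split or lost. Exons of Psmc3 overlap those of Slc39a13 over 215 bases, those of Psmd13 overlap Sirt3 over 342, those of Psmd9 overlap Gm26745 over 1849 and those of Psmc3ip overlap Mlx over 385, each on the other strand. The same holds for Psmb7 with Nek6 over 405 bases, Psmb8 with Gm20496 over 498 and Psmb9 with Tap1 over 212. Without the strand setting, reads of such pairs cannot be told apart. On GRCm38, Psmd8 is a protein-coding gene at chromosome 7, 29174188 to 29180701, minus strand, Psma6 lies at chromosome 12, 55384222 to 55418454, plus strand, and Psmc3 at chromosome 2, 91054009 to 91066369, plus strand. Psmd5 lies at chromosome 2, 34849734 to 34874968, minus strand, Psmd9 at chromosome 5, 123169413 to 123250131, plus strand, and Psmg1 at chromosome 16, 95979933 to 95990960, minus strand.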

How the data were processed

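Per the labels' protocols, RNA was taken up on columns and directional libraries were made after polyA selection. The values deposited by the authors are estimated counts (expected counts) per gene symbol, mostly whole, not normalized, on the build mm10 per the submitters' processing notes. The sources used here do not give the aligner, the counter, its strand setting or the annotation. Counts were rounded. CPM was scaled by TMM, and CPM per kilobase used principal transcripts of GENCODE on GRCm38, the assembly of mm10.

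Tests were two-sided F tests by quasi-likelihood in edgeR 4.0.16, after filterByExpr (minimum count 10, minimum total 15). All 8 libraries entered with a mean for each of the 4 groups, and the spread was estimated over all of them. The p-values of each of 5 contrasts were adjusted by Benjamini-Hochberg over 12517 genes with a threshold of 0.05. SE was taken as the size of a log2 fold change over the root of its F. The members, lists, named genes and alternatives were chosen with earlier results of these data known, so no list was tested. Values in every library are given for the catalytic subunits, for up to 4 raised and 4 lowered members per contrast past the threshold with groups apart, and for members singled out by counts or sequence. Psme1, Psme2 and Psmg2 to Psmg4 were named after their values were seen. Of the other pathway genes, Paaf1 was not analysed here and Sem1, Ufd1 and Ecpas were read under older symbols.

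Alternatives were other scalings and filters, DESeq2 1.42.0, limma-voom (limma 3.58.1), only the libraries compared, the replicate number as a block, removal of Rn45s, removal of the trend over transcript length (lowess, span 0.3), and leaving out each library. A group left with 1 library is assumed to vary like the others. Depth was 13020492 to 15613216 counts per library, and counting error is largest for Psmc3ip, Psmg3 and Psmg4. The work ran in R 4.3.3 and Python 3.11.15, with figures by matplotlib 3.10.9.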

Additional observations from a re-analysis of the deposited data

How the results depend on the processing

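Over the fits that leave out 1 library, the number of the 45 genes called ran from 5 to 25 for largazole in KD cells, from 2 to 23 for largazole in parental cells, from 0 to 22 for the knockdown under largazole, from 0 to 9 for the knockdown in DMSO and from 0 to 1 for the difference between responses. The median log2 fold change of the 45 ran over the same fits from -0.15 to 0.14, from 0.0152 to 0.0836, from -0.22 to 0.07, from -0.0591 to -0.0086 and from -0.23 to 0.10, in that order. The highest counts came without a KD largazole library. In every comparison the share of all genes called was also higher without either of those libraries than with all libraries. Where leaving out a library left fewer of the 45 called, the share of all genes called was lower too. The ranges of counts therefore do not describe the 45 genes alone. With only the libraries compared in the fit, 4 genes passed for largazole in KD cells beside 36.7% of all genes, and 24 for largazole in parental cells beside 64.7%. For the knockdown under largazole 0 passed beside 7.79%, and for the knockdown in DMSO 9 beside 28.1%. In these fits fewer samples estimate the spread, and the KD largazole libraries enter it only in the comparisons that contain them. The cause of the differences in count was not tested. For the knockdown under largazole 1 gene passed with upper-quartile scaling, beside 18.2% of all genes, and 1 with no filter on low counts, beside 11.9%.

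The median for largazole in parental cells was 0.13 with upper-quartile scaling and 0.11 with library totals, against 0.04 with TMM. Upper-quartile scaling also moved the median of all genes to 0.11, against 0.03. With the trend over transcript length removed the parental median was -0.0335, of the opposite sign, and the median for the knockdown in DMSO was -0.047. Together with the replicate block these medians were -0.0328 and -0.0437. The cause was not tested.

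Groups share replicate numbers, and correlations of the replicate differences between groups ran from -0.01 to 0.36. Of the 6 pairs of groups 4 exceeded 0.1, with 0.27 to 0.36 among KD largazole, KD DMSO and parental largazole, and the pairs of parental DMSO with the KD groups did not. The labels tie the numbers to no shared batch, so the samples are taken to share only a number. With the replicate number as a block, 11 genes passed for largazole in KD and 15 for largazole in parental cells. Without the block it was 9 and 11, beside 48.2% and 49.6% of all genes. The shares of all genes with the block are not given here for these 2 comparisons. For the knockdown under largazole 5 passed beside 24.8% of all genes, and for the knockdown in DMSO 3 beside 16.2%. None passed for the difference between responses, and the block left the medians above within the spread between replicates.

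Genes already called were followed among the 45, the 29 other pathway genes and the 3 inducible subunits. Their 990 values under alternatives held 797 that kept their direction and passed, 193 that kept their direction without passing and 0 that reversed. These genes were picked because they passed on the same libraries, which makes a reversal unlikely. Genes of the 45 that were not called did turn. Without 1 or the other KD largazole library the sign turned for 24 of 36 genes not called for largazole in KD, 1 of 34 for largazole in parental cells, 27 of 43 for the knockdown under largazole, 4 of 45 for the knockdown in DMSO and 35 of 45 for the difference between responses. Depth limits Psmc3ip, at 1.75 to 9.91 CPM, and Psmg3 and Psmg4.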
